A study of Rattus norvegicus with 8 samples.

Results

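Transcripts of 9 complement components (C1qa, C1qb, C1qc, C1r, C1s, C4a, C3, C7 and Serping1) were examined in rat thoracic aorta after nitroglycerin. The components were taken by gene symbol from the 27742 rows of the deposited gene table, and where a symbol had several rows (C4a and C7) the row with the highest mean over all libraries was used. All 9 had a row, and 8 of them passed the filter on low values, which left 12977 rows to test. Values are FPKM (fragments per kilobase of transcript, scaled to the mapped fragments of the library), a relative level per length that allows levels of different genes to be set side by side.

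The series holds 8 RNA libraries, 4 from controls and 4 from treated animals. All came from wild type male Sprague Dawley rats, given in the labels as 12 weeks old and weighing 180 to 200 g. Treated rats received nitroglycerin subcutaneously at 100 mg/kg, 3 times per day for 3 days, and controls received ethanol, the vehicle, on the same schedule. The vessel was rinsed in saline and kept in RNAlater, and total RNA was depleted of ribosomal RNA before sequencing. The labels name the tissue as aorta, while their RNA protocol refers to adipose. Whether each library is a separate rat is not stated in the labels, so p-values measure the spread between these libraries, which may be partly technical. Nitroglycerin is an organic nitrate that relaxes vascular smooth muscle through nitric oxide signalling, and repeated dosing is known to bring tolerance.

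Complement is a cascade of plasma and tissue proteins that marks and lyses targets. In its classical pathway the recognition molecule C1q, built from the A, B and C chains encoded by C1qa, C1qb and C1qc, activates the serine proteases C1r and C1s, which then cleave C4 and C2 to form an enzyme that cleaves C3. C7 belongs to the terminal complex that inserts into membranes, and Serping1 encodes C1 inhibitor, the serpin that inactivates C1r and C1s. Most circulating complement is made in the liver, while C1q is made chiefly by macrophages, and fibroblasts and other stromal cells are known local sources of C1r, C1s, C4 and C1 inhibitor.

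Promoter sequences are shown for C4a and C4b, paralogs on the same chromosome, to show how alike their upstream regions are, and for C1qa and C1qb because they encode chains of the same protein. Of the 9 components, 5 (C1qa, C1qb, C1r, C3 and C4a) matched the RefSeq promoter table of build GRCr8, and the 250 bases before the transcription start were searched on both strands for 3 motifs. Each sequence is given 5′ to 3′ on the strand of its gene, with matches to a motif in capitals.
C4a, chr20:4010107-4010356, plus strand: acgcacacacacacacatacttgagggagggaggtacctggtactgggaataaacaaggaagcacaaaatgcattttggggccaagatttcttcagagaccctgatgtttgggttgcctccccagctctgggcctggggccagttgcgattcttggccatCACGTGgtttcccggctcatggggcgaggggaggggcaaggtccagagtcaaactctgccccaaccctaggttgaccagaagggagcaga
C4b, chr20:4201729-4201978, plus strand: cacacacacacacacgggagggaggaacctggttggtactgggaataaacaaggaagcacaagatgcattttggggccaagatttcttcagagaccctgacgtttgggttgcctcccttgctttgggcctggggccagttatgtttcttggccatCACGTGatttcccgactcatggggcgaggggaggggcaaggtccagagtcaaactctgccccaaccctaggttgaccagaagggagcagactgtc
C1qa, chr5:154419934-154420183, minus strand: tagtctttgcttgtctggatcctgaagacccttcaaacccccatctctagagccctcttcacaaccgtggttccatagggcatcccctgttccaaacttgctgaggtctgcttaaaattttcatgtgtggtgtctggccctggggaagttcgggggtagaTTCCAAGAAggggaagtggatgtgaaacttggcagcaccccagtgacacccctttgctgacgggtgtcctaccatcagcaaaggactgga
C1qb, chr5:154407828-154408077, minus strand: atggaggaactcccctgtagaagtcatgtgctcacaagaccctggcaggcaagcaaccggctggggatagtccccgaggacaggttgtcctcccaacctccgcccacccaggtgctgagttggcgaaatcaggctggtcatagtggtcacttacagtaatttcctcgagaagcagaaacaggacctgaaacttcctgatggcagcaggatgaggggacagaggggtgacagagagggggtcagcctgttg
The E-box CACGTG was present in C4a, 90 to 85 bases upstream of the start, and in C4b, 95 to 90 bases upstream, and it was found in 5.59% of 33469 promoters of the same length. The STAT motif TTCNNNGAA was present in C1qa, 90 to 82 bases upstream, and in 7.67% of promoters. The interferon-response motif (GAAA, any 2 bases, GAAA) was in none of the 5 components' windows or in that of C4b, and in 3.41% of all. No motif searched for overlapped another in these windows, and a match describes the sequence only. The windows of C4a and C4b were identical at 226 of 245 aligned bases (92.2%), whereas those of C1qa and C1qb were identical at 57.3% of aligned bases.

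Aligned sequence amounted to 7.48 to 8.86 Gb in control and 6.77 to 8.39 Gb in nitroglycerin libraries, and reads per gene were not analysed here. FPKM stood higher with nitroglycerin in most of the transcriptome: 86.6% of tested rows had a mean log2 difference above 0, and the median difference was 0.30 on the log2(FPKM + 1) scale. The test of each component is therefore also given after median-of-ratios rescaling, which divides each library by a factor (0.742 to 0.996 in controls, 1.07 to 1.22 with nitroglycerin) so that the median row is level. After rescaling the median difference was 0.01. Smooth muscle markers summed to 2033 to 2708 FPKM in controls and 1267 to 2658 with nitroglycerin. Most of that sum was Acta2, at 1762 to 2401 and 1061 to 2359 FPKM. Log2 differences were below 0 for Acta2, Myh11, Cnn1 and Des and above 0 for Lmod1 (0.79), Smtn (0.25) and Myocd (0.17). Nitroglycerin library 1 stood apart in fat markers, with Plin1, a lipid droplet protein, at 20.8 FPKM against 0.401 to 3.32 in the other 7 libraries.

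Of the components, Serping1 was the only one that rose by the test used, and it did so about 2.18-fold. Serping1 was at 10.7, 12.7, 8.79 and 8.05 FPKM in control libraries 1 to 4 and at 21.9, 16.6, 28.1 and 21.1 FPKM in nitroglycerin libraries 1 to 4. Every nitroglycerin library lay above every control. The group means were 10.1 ± 2.08 and 21.9 ± 4.73 FPKM (SD, n = 4 each), with p = 0.0286 in a two-sided exact permutation test, the smallest value that its 70 splits allow. In limma, fitted over all 12977 rows, Serping1 rose by 1.05 on the log2(FPKM + 1) scale (SE 0.19, 95% confidence interval 0.62 to 1.48) with a Benjamini-Hochberg adjusted p of 0.0492. After rescaling the groups still did not overlap (8.90 to 14.4 against 15.6 to 23.7 rescaled FPKM), but the log2 difference was 0.68 and limma's adjusted p of 0.198 did not pass. In limma without rescaling, the call held without control library 2 (adjusted p = 0.0496) or nitroglycerin library 2 (0.0464). It was lost in limma without control library 1 (adjusted p = 0.105), 3 (0.102) or 4 (0.0824), or without nitroglycerin library 1 (0.136), 3 (0.133) or 4 (0.133).

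**Figure D1:**
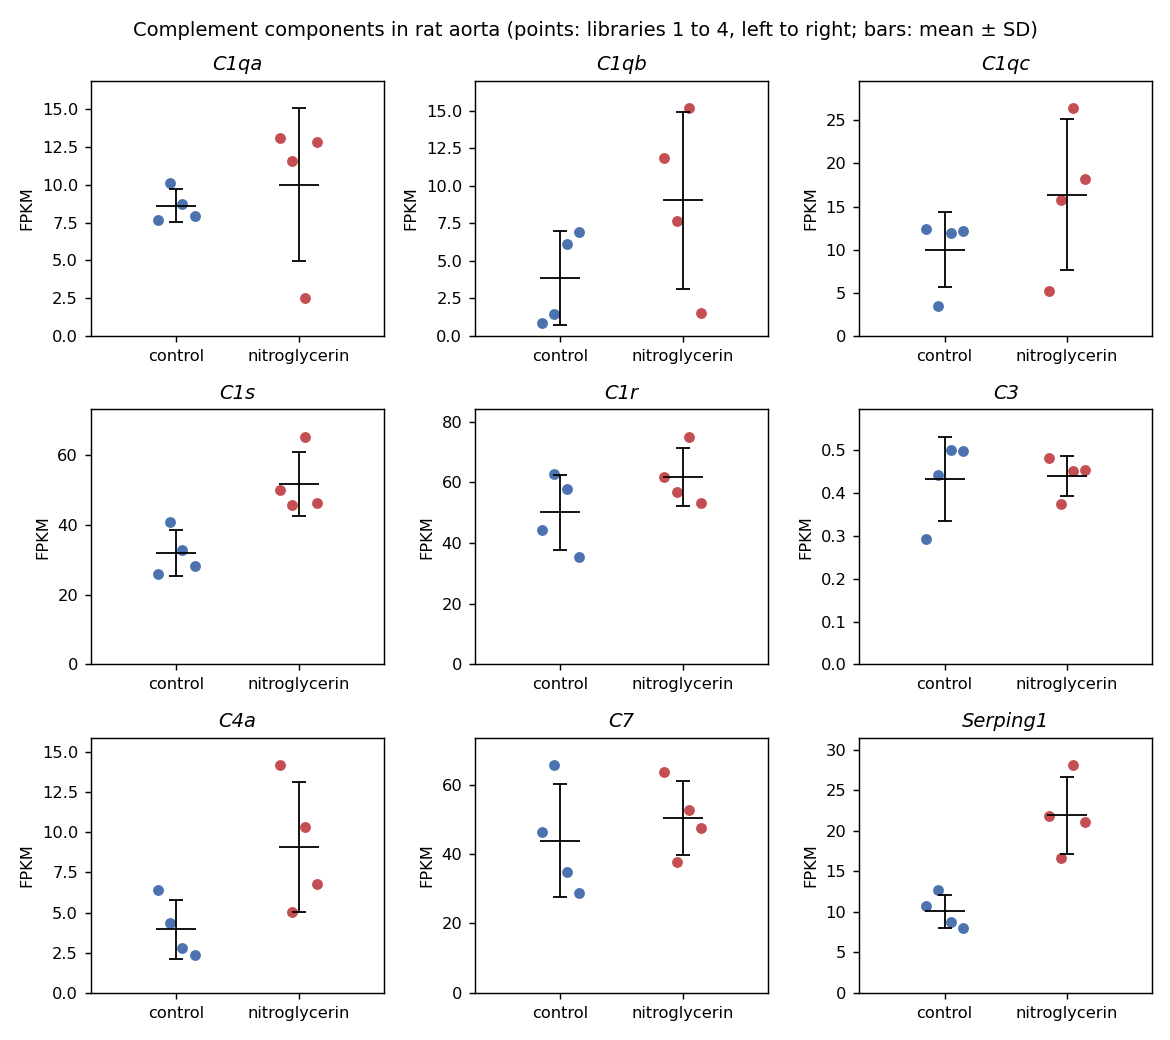
FPKM of the 9 complement components in each library, with a panel for each gene and its own axis from 0. Points are libraries 1 to 4 of the control and nitroglycerin groups, from left to right, and bars give the mean and SD. The groups are apart for Serping1 and C1s and overlap for the other 7 genes.

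C1s and C1r, the proteases that C1 inhibitor inactivates, are adjacent on the chromosome and were among the more abundant components. C1s was at 26.0, 40.7, 32.7 and 28.2 FPKM in the controls and at 50.0, 45.6, 65.2 and 46.3 FPKM in the nitroglycerin libraries. The groups did not overlap, with nitroglycerin library 3 the highest. Means were 31.9 ± 6.49 and 51.8 ± 9.15 FPKM (SD, n = 4 each), a ratio of 1.62 (two-sided exact permutation p = 0.0286). In limma the log2 difference of C1s was 0.69 (SE 0.18, 95% confidence interval 0.27 to 1.10), which did not pass, at an adjusted p of 0.0639. After rescaling it was 0.31 (limma adjusted p = 0.423), and the groups overlapped.

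C1r was at 44.4, 62.7, 57.7 and 35.5 FPKM in the controls and at 61.6, 56.8, 75.0 and 53.3 FPKM with nitroglycerin. The groups overlapped, since control libraries 2 and 3 lay within the nitroglycerin range. Means were 50.1 ± 12.4 and 61.7 ± 9.51 FPKM (SD, n = 4 each; two-sided exact permutation p = 0.257). The log2 difference of C1r was 0.32 (SE 0.21, limma adjusted p = 0.280) and turned to -0.06 after rescaling (adjusted p = 0.926).

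Ratios within a library do not depend on its scaling, and these were chosen with the values known, so they are given as a description. Serping1 over C1r was 0.241, 0.202, 0.152 and 0.227 in control libraries 1 to 4 and 0.355, 0.292, 0.375 and 0.395 in nitroglycerin libraries 1 to 4. The inhibitor transcript was higher relative to the C1r transcript in every nitroglycerin library, with means of 0.206 ± 0.0389 and 0.354 ± 0.0445 (SD, n = 4 each). C1s over C1r was 0.648 ± 0.103 and 0.838 ± 0.0360 (SD, n = 4 each), also without overlap, though control library 4 reached 0.793 against 0.802 in nitroglycerin library 2. Among all tested rows, 1.56% stood higher against C1r in every nitroglycerin library. Serping1 over C1s was 0.320 ± 0.0639 in controls and 0.422 ± 0.0398 with nitroglycerin, and these groups overlapped because control library 1 was at 0.412.

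**Figure D2:**
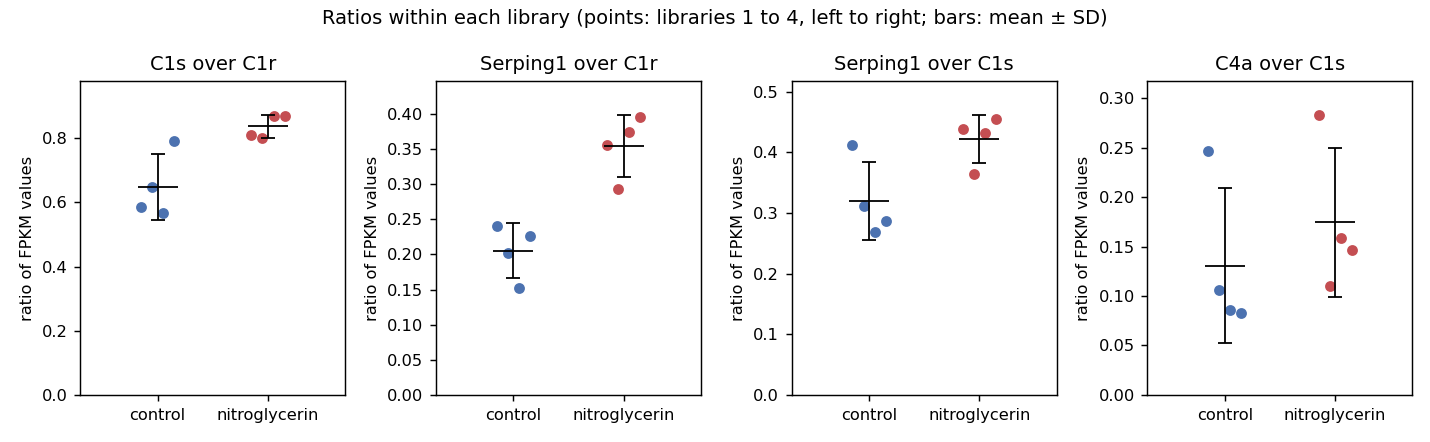
Ratios of FPKM between components in the same library, with points for libraries 1 to 4 of each group from left to right and bars for the mean and SD. Serping1 over C1r separates the groups (0.152 to 0.241 against 0.292 to 0.395), whereas Serping1 over C1s overlaps.

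The C1q chains varied widely within each group, and different chains were low in different libraries. C1qa was at 7.65, 10.1, 8.72 and 7.95 FPKM in the controls and at 13.1, 11.6, 2.51 and 12.8 FPKM with nitroglycerin. Nitroglycerin library 3 was the lowest of all 8 libraries while the other 3 nitroglycerin libraries were above every control. C1qb was at 0.841, 1.47, 6.12 and 6.91 FPKM in the controls and at 11.9, 7.66, 15.2 and 1.50 FPKM with nitroglycerin. Control libraries 1 and 2 and nitroglycerin library 4 were low. C1qc was at 12.4, 3.50, 12.0 and 12.2 FPKM in the controls and at 5.21, 15.8, 26.4 and 18.2 FPKM with nitroglycerin. Control library 2 and nitroglycerin library 1 were low, and nitroglycerin library 3, lowest in C1qa, was highest in C1qb and C1qc.

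None of the 3 chains passed the test. Means were 8.60 ± 1.09 and 10.0 ± 5.04 FPKM for C1qa, 3.84 ± 3.12 and 9.05 ± 5.89 FPKM for C1qb, and 10.0 ± 4.35 and 16.4 ± 8.73 FPKM for C1qc (SD, n = 4 each). The two-sided exact permutation p was 0.629, 0.114 and 0.286 in that order. Limma log2 differences were 0.01 (SE 0.41) for C1qa, 1.03 (SE 0.66) for C1qb and 0.60 (SE 0.50) for C1qc, with adjusted p of 0.985, 0.274 and 0.387. After rescaling they were -0.33, 0.75 and 0.24, so C1qa changed sign. Without nitroglycerin library 3, the log2 difference of C1qa as deposited was 0.50 (limma adjusted p = 0.137). That of C1qb was 0.66 without control library 1 and 1.60 without nitroglycerin library 4. The residual SD of log2 values of these chains was large: only 7.21%, 1.56% and 3.78% of tested rows had a larger one than C1qa, C1qb and C1qc.

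Since C1q holds equal numbers of A, B and C chains, the chains were also compared within each library. C1qa, C1qc and C1qb lie next to one another with 0 protein-coding genes between neighbours. C1qb was the lowest chain in 6 of 8 libraries and C1qc the highest in 6 of 8. The highest chain exceeded the lowest by 1.76 to 14.7 times in control libraries and by 2.06 to 12.2 times in nitroglycerin libraries. The sum of the chains was 20.9, 15.1, 26.8 and 27.0 FPKM in the controls and 30.2, 35.0, 44.1 and 32.6 FPKM with nitroglycerin. Its groups did not overlap, as in 24.2% of tested rows as deposited. In the controls the sum varied less, relative to its mean, than C1qb and C1qc but more than C1qa. After rescaling the sums were 25.7 ± 7.08 and 30.7 ± 5.23 (SD, n = 4 each) and overlapped.

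**Figure D3:**
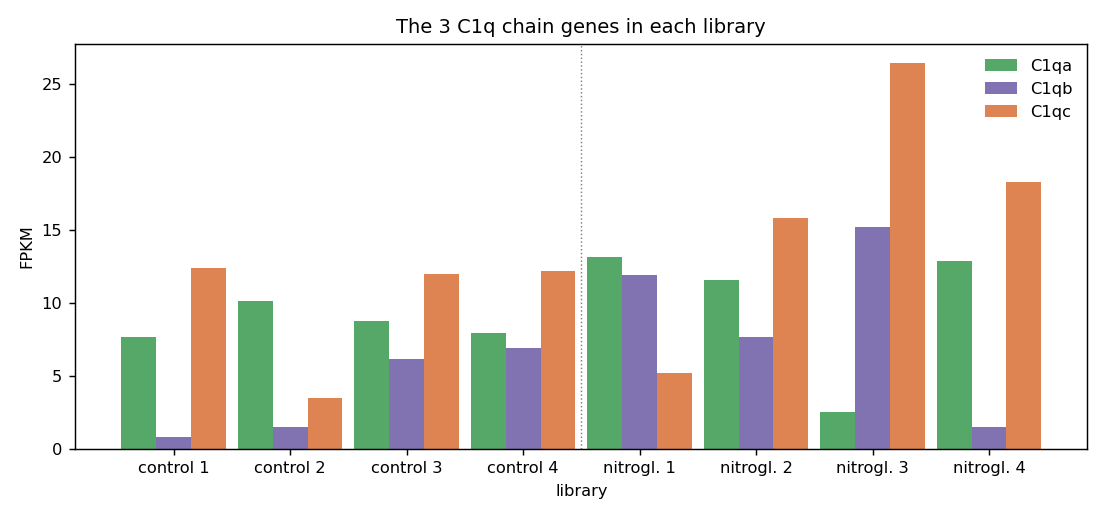
FPKM of C1qa, C1qb and C1qc in each of the 8 libraries. The chain that is low differs from library to library: C1qb in control 1 and nitroglycerin 4, C1qb and C1qc in control 2, C1qc in nitroglycerin 1 and C1qa in nitroglycerin 3.

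Macrophages are the main known source of C1q, and their markers were examined beside it. Of 13 macrophage markers with a row, 11 were tested and 1 rose, against 1.29% of all rows: Cd163, a scavenger receptor of resident macrophages, with 1.91 ± 0.194 FPKM in controls and 4.92 ± 1.48 with nitroglycerin (SD, n = 4 each; limma log2 difference 0.99, adjusted p = 0.0492). At an unadjusted p under 0.05, 6 of 11 were higher, against 34.1% of all rows. Lyz2, a lysozyme, had a log2 difference of -0.30. The list summed to 42.4 to 106 FPKM in controls and 62.0 to 118 with nitroglycerin, and none was called after rescaling. Lyz2 was the highest marker of the list in every library, at 15.5 to 75.6 FPKM in controls and 13.7 to 58.9 with nitroglycerin. The overlap of the sum therefore depends heavily on Lyz2, and the sum without it was not examined. Csf1r, the receptor that defines the lineage, was at 6.58 ± 0.776 and 8.44 ± 1.96 FPKM (SD, n = 4 each; limma adjusted p = 0.205). The C1q sum divided by Csf1r was 3.46 ± 1.01 in controls and 4.29 ± 0.747 with nitroglycerin, with overlap. Adventitial fibroblast markers summed to 625 to 1432 FPKM in controls and 1495 to 2595 with nitroglycerin. Without Gsn (gelsolin), at 284 to 784 and 1069 to 2099 FPKM, the other 8 summed to 306 to 648 and 426 to 499 FPKM and overlapped. Limma called 0 of 9 at the adjusted threshold, and 3 of 9 were higher at an unadjusted p under 0.05. Endothelial markers summed to 35.7 to 58.8 and 62.4 to 71.6 FPKM as deposited. These sums did not overlap, as in 24.2% of tested rows as deposited, and the rescaled sums were not examined. Limma called Esam and Eng higher of 7, and 5 of 7 were higher at an unadjusted p under 0.05. After rescaling 0 of 7 were called. The part of these cell types in the result was not tested, and in whole tissue the number of cells of a type and the RNA per cell cannot be told apart. Hepatocyte, lymphocyte and neutrophil markers were below 1 FPKM in every library for 4 of 5, 5 of 5 and 5 of 5 genes, and albumin reached at most 0.249 FPKM.

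C4a and C3 encode the substrates that the activated proteases cleave in turn. C4a was at 6.42, 4.32, 2.80 and 2.34 FPKM in the controls and at 14.2, 5.03, 10.3 and 6.79 FPKM with nitroglycerin. The groups overlapped at a single point, as control library 1 exceeded nitroglycerin library 2. Means were 3.97 ± 1.84 and 9.08 ± 4.05 FPKM (SD, n = 4 each; two-sided exact permutation p = 0.0571). The limma log2 difference of C4a was 1.00 (SE 0.33, adjusted p = 0.0854) and after rescaling 0.67 (adjusted p = 0.511). Nitroglycerin library 1, the library high in fat markers, was the highest.

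Another annotated row also bore the name C4a, with 2.47 ± 0.870 FPKM in controls and 5.51 ± 1.81 with nitroglycerin (SD, n = 4 each; limma log2 difference 0.90, adjusted p = 0.0639). After rescaling its log2 difference was 0.59 (limma adjusted p = 0.434). Its ratio to the main row was 0.647 ± 0.0809 in controls and 0.634 ± 0.102 with nitroglycerin. No row bore the name C4b, and because reads of the C4 paralogs may be split between loci, each of these values is uncertain as a level of C4a. C3 was listed at 0.293, 0.443, 0.501 and 0.499 FPKM in the controls and at 0.482, 0.374, 0.452 and 0.454 FPKM with nitroglycerin, below the filter of 1 FPKM in at least 4 libraries in every case. Means were 0.434 ± 0.0978 and 0.440 ± 0.0465 FPKM (SD, n = 4 each; two-sided exact permutation p = 0.943), and the groups overlapped. After rescaling they were 0.485 ± 0.0787 and 0.380 ± 0.0272 (SD, n = 4 each; two-sided exact permutation p = 0.0571), also with overlap. In limma without the filter, the log2 difference of C3 was 0.01 (SE 0.08, adjusted p = 0.959).

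C7, the terminal-complex component, was abundant and did not separate the groups. It was at 46.3, 65.6, 34.7 and 28.8 FPKM in the controls and at 63.5, 37.8, 52.6 and 47.6 FPKM with nitroglycerin. The controls spanned the wider range and held both the highest and the lowest library. Means were 43.9 ± 16.2 and 50.4 ± 10.7 FPKM (SD, n = 4 each; two-sided exact permutation p = 0.514). The limma log2 difference was 0.24 (SE 0.27, adjusted p = 0.515) and -0.14 after rescaling (adjusted p = 0.869).

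Across the components, the mean was higher with nitroglycerin in all 9 as deposited. Of the 8 tested, 1 was called higher and 0 lower by limma at an adjusted p under 0.05, against 1.29% and 0.0616% of all tested rows. At an unadjusted p under 0.05, 3 of 8 (Serping1, C1s and C4a) were higher, against 34.1% of all rows. Groups did not overlap in 2 of 8, against 24.2% of all rows, and both shares were near that background. The median log2 difference of the tested components was 0.64 beside 0.30 over all rows, and after rescaling 0.28 beside 0.01. After rescaling 0 of 8 passed the adjusted threshold in limma in either direction, against 0.131% of rows, with 0.0308% called higher. At an unadjusted p under 0.05, 1 was higher, against 5.50% of rows, and 1 did not overlap, against 3.78% of rows. Serping1 was that component in both counts. The rescaled difference was above 0 in 5 of 8, against 52.4% of rows.

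**Figure D4:**
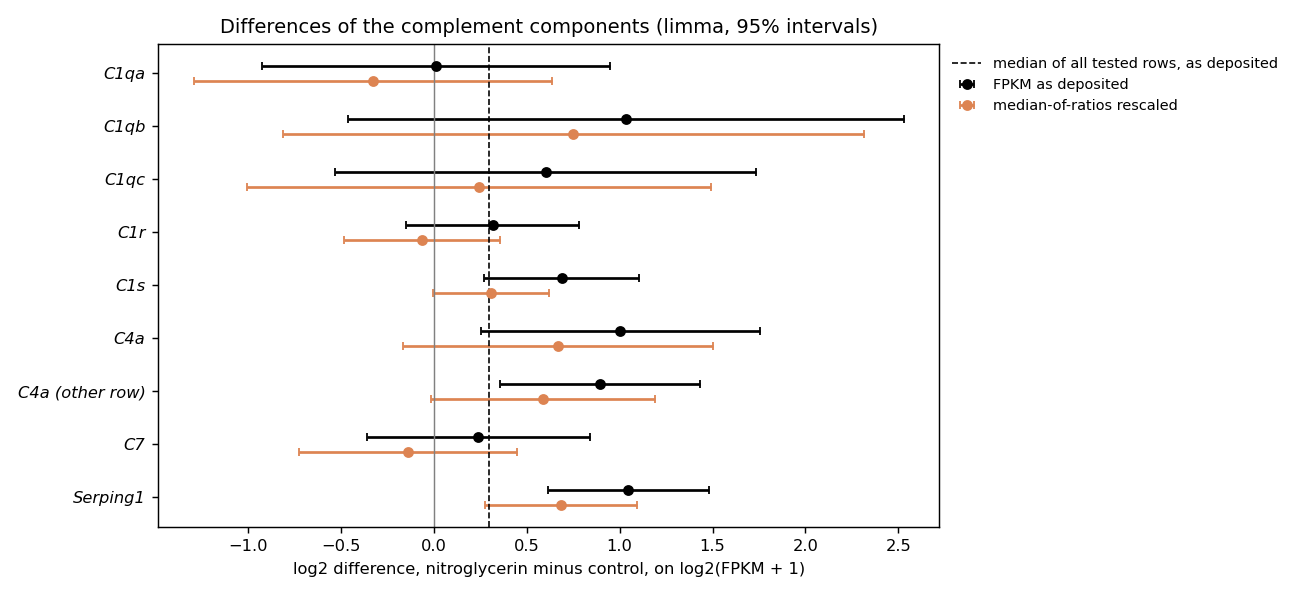
Log2 difference, nitroglycerin minus control, of the 8 tested components with 95% confidence intervals from limma, as deposited and after median-of-ratios rescaling. C3 is not drawn because it was below the filter. Serping1 is at 1.05 and 0.68, and C1qa, C1r and C7 turn from above to below 0 with rescaling.

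The pathway was widened to 48 other complement genes, of which 34 had a row and 14 passed the filter. None was called in either direction by limma at the adjusted threshold, with 3 higher (C2, Cfd and Cr1l) and 1 lower (C5ar1) at an unadjusted p under 0.05, against 34.1% and 1.02% of all rows. As deposited, all nitroglycerin libraries lay above all controls in 2 of the 14 (Cfd and Cr1l), against 24.2% of all rows. Overlap after rescaling was not examined for these genes. The median log2 difference of the 14 was 0.22 beside 0.30 for all tested rows, and -0.044 beside 0.01 after rescaling. Among initiators and their enzymes, C2, the partner that C1s cleaves with C4, was at 3.71, 7.99, 3.68 and 3.03 FPKM in the controls and at 7.30, 6.54, 8.05 and 8.13 with nitroglycerin (log2 difference 0.67, limma adjusted p = 0.0919). Rescaled, the log2 difference of C2 was 0.35 (limma adjusted p = 0.547). Control library 2 alone overlapped the nitroglycerin range, and without it the limma adjusted p of C2 was 0.0441 (log2 difference 0.93). As deposited, no other single omission of the 8 brought C2 past the threshold: the adjusted p ranged up to 0.192 over the others, and with rescaling it was 0.202 without control library 2. C1rl, a C1r-like protease, was at 2.02 ± 0.615 and 3.18 ± 1.48 FPKM, and Masp2, the lectin-pathway counterpart of C1s, was at 1.69 ± 0.330 and 2.21 ± 0.299 FPKM. The ficolin Fcna was at 1.17 ± 0.586 and 1.48 ± 0.297 FPKM, and the scavenger collectin Colec12 at 7.94 ± 1.89 and 9.18 ± 0.428 FPKM (SD, n = 4 each throughout).

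Of the alternative pathway, factor D (Cfd), the protease that fat cells secrete as adipsin, was at 6.75, 6.97, 3.06 and 2.17 FPKM in the controls and at 39.7, 9.55, 9.27 and 9.61 FPKM with nitroglycerin. The groups did not overlap as deposited, as in 24.2% of tested rows. Nitroglycerin library 1, the library high in Plin1, was far above the other 3. The log2 difference of Cfd was 1.47 (SE 0.49, limma adjusted p = 0.0875). Rescaled, it was 1.13 (limma adjusted p = 0.450). Properdin (Cfp), which stabilises the alternative convertase, was at 3.55 ± 0.617 and 3.59 ± 0.404 FPKM, and C8g, a chain of terminal component C8, was at 1.42 ± 0.286 and 2.07 ± 0.632 FPKM (SD, n = 4 each).

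Among regulators, Cr1l, the rodent membrane protein also called Crry that limits C3 convertases, was at 5.13, 8.28, 7.10 and 6.22 FPKM in the controls and at 10.3, 9.17, 9.66 and 12.1 FPKM with nitroglycerin. Its groups did not overlap as deposited, as in 24.2% of tested rows. The limma adjusted p of Cr1l, 0.0645, was the lowest of the other complement genes (log2 difference 0.57, 0.22 after rescaling). Clusterin (Clu), which binds the terminal complex, was the most abundant complement gene tested, at 256 ± 46.3 and 296 ± 42.8 FPKM (SD, n = 4 each). Its log2 difference was above 0 as deposited and below 0 after rescaling. Cd59, which blocks the terminal complex on cells, was at 7.09 to 9.84 FPKM in 3 controls and 51.0 in control library 4. With nitroglycerin it was at 8.96 to 9.73 FPKM in 3 libraries and 18.1 in library 4. The log2 difference of Cd59 was -0.28 (limma adjusted p = 0.712) and 0.32 without control library 4. C1qbp, a mitochondrial protein that binds C1q, was at 5.63 ± 2.32 and 6.46 ± 2.25 FPKM (SD, n = 4 each).

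Among receptors, C5ar1, the anaphylatoxin receptor of myeloid cells, was at 1.39, 1.74, 1.33 and 1.56 FPKM in the controls and at 0.141, 2.06, 0.0306 and 0.0184 FPKM with nitroglycerin. Only nitroglycerin library 2 was at the control level. The log2 difference of C5ar1 was -0.85 (SE 0.35, limma adjusted p = 0.122). Rescaled, it was -0.99 (limma adjusted p = 0.311). Leaving out nitroglycerin library 2, which went against the other 3, gave -1.23 (limma adjusted p = 0.0434). None of the other 7 omissions passed as deposited (limma adjusted p up to 0.232). With rescaling, 1 of 8 omissions passed (limma adjusted p = 0.0297) and the others ranged up to 0.543. Over these rescaled omissions the log2 differences of C5ar1 ran from -1.35 to -0.83. Itgb2, the shared chain of leukocyte integrins, was at 0.958 ± 0.123 and 1.11 ± 0.218 FPKM (SD, n = 4 each).

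**Figure D5:**
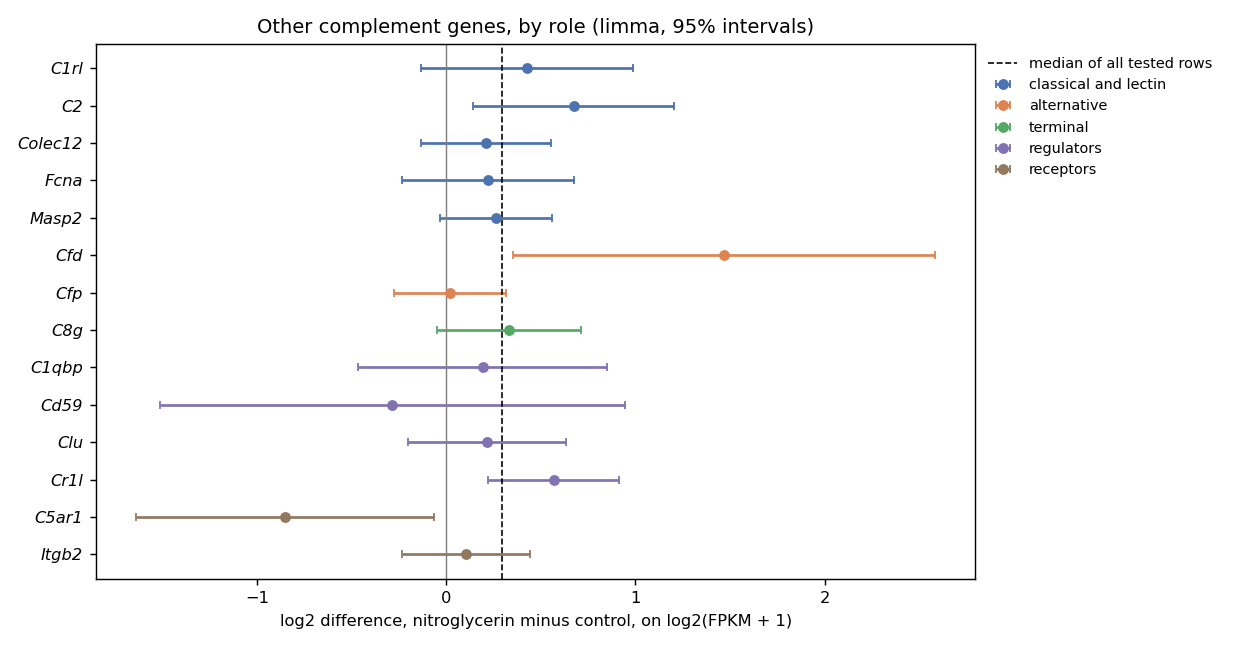
Log2 difference, nitroglycerin minus control, of the 14 other complement genes tested, with 95% confidence intervals from limma. Cfd is the highest at 1.47 and C5ar1 the lowest at -0.85, and none passed the adjusted threshold.

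The rows whose profile over the 8 libraries was most like that of each component were found by the smallest root mean square difference of centred log2(FPKM + 1) values among 10077 annotated rows. Nearest to the mean of the C1q chains were Tpm1 (0.161), Cabp1 (0.161) and Xpo4 (0.166), where the median row was at 0.425. C7 was nearest to Skil (0.117), Map3k6 (0.126) and Bcl2l1 (0.134), with the median row at 0.402. C3, whose low values vary little on this scale, was nearest to Peli2 (0.0387), AABR07066792.1 (0.0439) and Rbm3 (0.0449), with the median row at 0.250. The rows nearest to Serping1, named after their values were seen, were Akr1c14 (0.142), Clec10a (0.153) and Cd163 (0.158), with the median row at 0.481. Clec10a is a lectin of macrophages and dendritic cells. The rows nearest to C4a, also named after their values were seen, were Xdh (0.224), Steap4 (0.228) and the adventitial fibroblast marker Pi16 (0.231). The median row was at 0.644. Serping1 and Cd163 were both called higher, so their closeness in part reflects that shared group difference. The cell source of these transcripts was not tested. Within the components, C1s and C1r were the closest pair, at 0.230.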

How the data were processed

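RNA of thoracic aorta was measured in 4 control and 4 nitroglycerin libraries. The authors computed FPKM for each gene and deposited these values, per the file headers. The deposited table of assembled long noncoding transcripts gives FPKM and coverage (signal per base), per the file headers, and the ratio of coverage to FPKM gave the aligned gigabases. Bowtie 0.12.2, StringTie 1.3.0 and HISAT2 2.0 are named, without their roles, in the submitters' processing notes, with builds mm8 and Rnor_6.0. Aligned sequence was 6.77 to 8.86 Gb per library. Counts were not analysed here, so no counting intervals were computed.

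Values were analysed as log2(FPKM + 1) for rows that reached 1 FPKM in 4 or more libraries, a scale that understates differences of low genes. The test was limma 3.58.1 (R 4.3.3; mean-variance trend, Benjamini-Hochberg over 12977 rows, threshold 0.05), which was tested on simulated data. There it recovered 20% of 50 rows changed by 0.58 on the log2 scale and 64% of 50 rows changed by 1. Of 125 calls 8 were false. The simulation held no shift common to most rows, unlike these data. For single FPKM values of the 9 components, 18 exact permutation tests (two-sided, 70 splits, not adjusted) were run, as deposited and rescaled. The other annotated C4a row was tested in the same way (exact permutation p = 0.0571 as deposited and 0.143 rescaled). The smallest p these allow is 0.0286. Promoters came from RefSeq (GRCr8). Plots used matplotlib 3.10.9 in Python 3.11.15. The components, gene lists and cell type markers were chosen with earlier results of these data known. All 9 components were named, as were other complement genes that passed the filter, except 1 that is not reported here, and up to 3 nearest rows for the C1q mean, C3 and C7. Alternatives covered the pseudocount, the filter, the scaling, the model, the choice of rows and leaving out each library.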

Additional observations from a re-analysis of the deposited data

Results flagged for a closer look

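Within each group of 4 libraries, the highest or lowest value was compared with the other 3 by Dixon's ratio of gap to range. Of 74 groups examined, 10 (13.5%) exceeded the 95% critical value. For normally distributed values about 1 in 20 would exceed it. The share over all tested rows was not computed, and the groups include sums and ratios built from the same genes. Whether outliers were in excess here was therefore not tested.

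Among the C1q chains, C1qa was at 2.51 FPKM in nitroglycerin library 3, against 11.6 to 13.1 in the others, and C1qc at 3.50 FPKM in control library 2, against 12.0 to 12.4. The rescaled sum of C1qa, C1qb and C1qc was 15.1 in control library 2, against 28.2 to 29.9. C2 was at 7.99 FPKM in control library 2, against 3.03 to 3.71. Cfd was at 39.7 FPKM in nitroglycerin library 1, against 9.27 to 9.61. Cd59 was at 51.0 FPKM in control library 4, against 7.09 to 9.84, and at 18.1 FPKM in nitroglycerin library 4, against 8.96 to 9.73. C5ar1 was at 2.06 FPKM in nitroglycerin library 2, against 0.0184 to 0.141. The ratio of C4a to C1s was 0.247 in control library 1, against 0.0832 to 0.106. The ratio of the other annotated C4a row to the main row was 0.482 in nitroglycerin library 1, against 0.664 to 0.699.

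Outside the comparisons, an assembled locus named C4a without an annotated transcript averaged 0.959 FPKM over the nitroglycerin libraries, above the 0 to 0.456 FPKM of the controls. It was at 1.65 and 2.19 FPKM in nitroglycerin libraries 1 and 3 and listed at 0 in libraries 2 and 4.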

How the results depend on the processing

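Limma called 1 component higher and 175 rows in all. The component count was 0, with Serping1 no longer called, with a pseudocount of 0.1 (7 rows called) or 0.01 (8), without the filter (26), with median-of-ratios (17), quantile (15) or upper-quartile (21) rescaling, without the trend (41), and with rows of one symbol summed, an alternative chosen after seeing the data (30). It was 3 with array weights (1936 rows; Serping1, C1s and C4a) and 2 with annotated rows only (828 rows; C1s at an adjusted p of 0.0499). At an unadjusted p under 0.05 the count of 3 was 1 with median-of-ratios rescaling. Over all alternatives Serping1 kept its direction, with log2 differences from 0.58 to 1.19. The components called lower stayed at 0, with 0 at an unadjusted p under 0.05 in limma. Other complement genes called higher numbered 3 with array weights. Whether replicate numbers pair the libraries was not tested. Deviations correlated between libraries of the same number at 0.133, -0.0111, -0.0117 and 0.121 for replicates 1 to 4. With libraries of other numbers the mean correlations were -0.0430, 0.0030, 0.0047 and -0.0416. The limma fit with the replicate block called 0 rows and 0 components (Serping1 adjusted p = 0.123).

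Some log2 differences reversed. With median-of-ratios rescaling they were -0.33 for C1qa, -0.065 for C1r, -0.14 for C7, -0.14 for Colec12, -0.28 for Cfp, -0.17 for Clu, -0.13 for C1qbp and -0.092 for Itgb2. With upper-quartile rescaling the same genes were at -0.30, -0.033, -0.11, -0.11, -0.25, -0.14, -0.10 and -0.077. With quantile normalization C1qa was at -0.26, Masp2 at -0.018, Fcna at -0.034, Colec12 at -0.070, Cfp at -0.29, Clu at -0.066, C1qbp at -0.098 and Itgb2 at -0.15. C1qa was also at -0.027 and -0.032 with pseudocounts of 0.1 and 0.01 and at -0.097 with array weights. The cause was not tested.

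Leaving out 1 library, as deposited or with median-of-ratios rescaling, gave 0 to 209 rows called, 0 to 1 components higher, 0 to 1 other complement genes in each direction, and 1 to 4 components at an unadjusted p under 0.05. Log2 differences ranged from -0.50 to 0.50 for C1qa, 0.41 to 1.60 for C1qb, -0.20 to 1.04 for C1qc, -0.23 to 0.43 for C1r, -0.33 to 0.45 for C7, -0.049 to 0.60 for C1rl, -0.056 to 0.32 for Masp2, -0.12 to 0.39 for Fcna, -0.23 to 0.34 for Colec12, -0.32 to 0.081 for Cfp, -0.017 to 0.44 for C8g, -0.86 to 0.32 for Cd59, -0.27 to 0.33 for Clu, -0.30 to 0.37 for C1qbp and -0.13 to 0.14 for Itgb2.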

Other observations

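Of the 20 other complement genes with a row that did not pass the filter, Cd55 and Vtn showed groups with all nitroglycerin libraries above all controls, as 24.2% of the rows that passed it did. Both were chosen after their values were seen. Cd55, which speeds the decay of convertases, was at 0.317, 0.582, 0.185 and 0.202 FPKM in the controls and at 1.42, 0.583, 1.24 and 0.844 FPKM with nitroglycerin, so that control library 2 and nitroglycerin library 2 nearly met. Vitronectin (Vtn), which binds the terminal complex, was at 0.520, 0.594, 0.355 and 0.139 FPKM in the controls and at 1.52, 0.623, 1.00 and 0.693 FPKM with nitroglycerin. C3ar1, the receptor for the C3 fragment C3a, was at 0.407, 0.805, 0.578 and 0 FPKM in the controls and at 0.0579, 0.0166, 0 and 0.156 FPKM with nitroglycerin.

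A single-exon assembled transcript named for C7 lay on the minus strand at chr2:54748874-54749088, in the coordinates of the deposited table, and was 215 bases long. It was at 0.440 FPKM in control library 1 and listed at 0 in the other 7 libraries.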
